A study of Mus musculus with 8 samples.

Results

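This account covers 41 genes that are inducible through hypoxia-inducible factor (HIF) or encode glycolytic enzymes and the glucose and lactate carriers around them. They were chosen by name from what the genes are known to do, but with earlier results of these data known. Shares of the members set beside those of all genes are therefore descriptions and not independent tests. All 41 were found in a count table of 23369 genes, and 39 were abundant enough to be tested, among 12610 genes in all. Of the 41 genes, 22 form the glycolytic group, from glucose import to lactate export, and 19 the other HIF-responsive group. The RNA was that of CD45+CD11b+Ly6G+ cells, the surface pattern of neutrophils, sorted out of spinal cord. The donors were C57BL/6N mice in which experimental autoimmune encephalomyelitis (EAE), a T cell-driven model of multiple sclerosis, had been induced. All 8 libraries came from mice with EAE. Tissue was taken at 2 times of day on the zeitgeber scale, which counts hours from lights-on: ZT1, early in the light phase (n = 4), and ZT13, early in the dark phase (n = 4). The labels name no transgene and no treatment besides the induction of EAE, and give each group the tissue, strain and time point only. Nothing in them ties a library to a numbered animal, so the p-values measure the spread between these libraries, which may be technical. In sorted cells taken as a bulk, fewer cells of a type and less RNA per cell cannot be told apart.

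HIF is a transcription factor made of an oxygen-regulated alpha subunit, such as the product of Hif1a, and a constant partner, ARNT. When oxygen is present, prolyl hydroxylases encoded by the Egln genes mark the alpha subunit, the VHL ubiquitin ligase binds the mark, and the protein is degraded; when oxygen falls the subunit persists, enters the nucleus and raises transcription of genes for glucose uptake, glycolysis, lactate export, angiogenesis and mitochondrial removal. The Hif1a protein is thus controlled mainly after translation, which a count of its mRNA does not measure. Neutrophils hold few mitochondria and draw their energy largely from glycolysis, also when oxygen is plentiful.

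Libraries held 46152067 to 67873023 counts. Levels are given as CPM, a gene's share of the library's counts after scaling by trimmed-mean (TMM) factors. The ZT1 libraries held 15760 to 17701 genes with 1 or more counts and the ZT13 libraries 13945 to 15751, the fewest in ZT13 replicate 3. The cells matched their label by its markers. The summed level of 14 neutrophil genes was 139494 to 179030 CPM at ZT1 and 182406 to 231308 at ZT13, so that every ZT13 library lay above every ZT1 library, with S100a8, S100a9, Cxcr2, Ngp and Lcn2, 5 of the 14, at an unadjusted edgeR p under 0.05 and higher at ZT13 and Csf3r lower. The summed markers of other cells overlapped between the times: 1170 to 1801 and 991 to 1613 CPM summed for macrophages and microglia, 1845 to 2650 and 1759 to 2577 for monocytes and dendritic cells, and 141 to 203 and 139 to 249 for oligodendrocytes, where Cldn11 and Olig1 stood at 0 in all libraries. T and NK cell markers summed to at most 22.2 CPM, those of B cells to at most 249, endothelial and stromal ones to at most 22.2 with Rgs5 at 0, those of astrocytes and neurons to at most 2.72, and those of erythroid cells and platelets to at most 30.7. No marker in any of these lists passed the adjusted edgeR threshold. Besides the 6 neutrophil genes named above, 6 markers of other cells had an unadjusted edgeR p under 0.05. By DESeq2 the adjusted p was under 0.05 for Lcn2 (0.0336), Prf1 (0.00178) and Ly6c2. Ly6c2, a monocyte marker, was at 679 to 1048 CPM at ZT1 and 1105 to 1298 at ZT13, with no overlap (edgeR unadjusted p = 0.00457, adjusted p = 0.403; DESeq2 adjusted p = 0.0435, limma-voom adjusted p = 0.296). Ccr2, of the same list, was at 437 to 548 CPM at ZT1 and 305 to 491 at ZT13 (edgeR unadjusted p = 0.030). Both, and Csf1r at 368 to 623 CPM, reached or passed the level of Ly6g, 264 to 512 CPM. So did Fn1 of the monocyte list, at 521 to 1035 CPM at ZT1 and 339 to 862 at ZT13. Among rare markers Cd79b and Prf1 also did not overlap, Cd79b with higher values at ZT13 and Prf1 with 0 there. Hba-a1 and Hbb-bs had an unadjusted edgeR p under 0.05 with higher ZT13 means, but their groups overlapped. Both were far higher in ZT13 replicate 4, at 6.00 and 15.4 CPM, than in the other ZT13 libraries. The part that these markers, the higher neutrophil marker sum and the lower number of detected genes at ZT13 have in the values of the 41 genes was not tested.

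No member passed the test between the times after adjustment, as no gene of the 12610 did (edgeR quasi-likelihood test, Benjamini-Hochberg adjusted threshold of 0.05, 0% of all genes). Among the 39 tested members the fitted log2 fold change of ZT13 over ZT1 was negative for 28 and positive for 11. Negative values thus made up 71.8% of the members, beside 52.3% of all genes tested, and among genes averaging 50 CPM or more 80.0% of the 25 members beside 58.7% of all. At an unadjusted p under 0.05 stood 8 members, all with lower values at ZT13: Pfkp, Ero1l, Pfkl, P4ha1, Hk3, Hif1a, Vegfa and Bnip3. These 8 are 20.5% of the members tested, against 4.85% of all genes tested that had such a p with lower values and 4.35% with higher values, and 1160 genes, 9.20%, in either direction. Members are more abundant than the average gene, and abundant genes reach a small p more often: among the 2889 genes averaging 50 CPM or more, 9.17% had such a p with lower values, beside 6 of the 25 members of that abundance (24.0%), and 7.48% with higher values, beside 0 members. In 5 members (12.8%) the ZT1 and ZT13 libraries did not overlap, all lower at ZT13: Hif1a, Pfkl, Pfkp, Vegfa and Ero1l. Over all genes tested 3.00% were lower without overlap and 2.66% higher, together 5.66%. Among genes averaging 50 CPM or more 4.78% were lower without overlap, beside 5 of the 25 members of that abundance (20.0%). With 3 libraries against 4, groups fail to overlap more often. Without ZT1 replicate 4 the lower members without overlap were 9 (22.5%), beside 4.45% of all genes tested under that setting. They were 8 (20.0%) beside 6.23% without ZT13 replicate 2, and 11 (27.5%) beside 5.49% without ZT13 replicate 3. These were the settings with the most such members. Leaving out any other single library gave only 5 or 6, at most 15.4% of the members, beside 4.28% to 5.90% of all genes. The median log2 fold change was -0.09 over the 22 glycolytic members and -0.25 over the 17 tested members of the other HIF-responsive group, beside -0.02 over all genes. The same fit scaled by library totals alone, which moved the median of all genes to -0.08, gave 13 members at an unadjusted p under 0.05, all lower, beside 6.46% of all genes lower at such a p, with 30 of 39 log2 fold changes negative; of all genes at such a p it put 34.0% higher at ZT13, against 47.2% with TMM factors. At the adjusted threshold DESeq2 called 256 of 15044 genes (1.70%), 1.10% lower, and of the 40 members with an adjusted p it called 1, Pfkp.

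**Figure D1:**
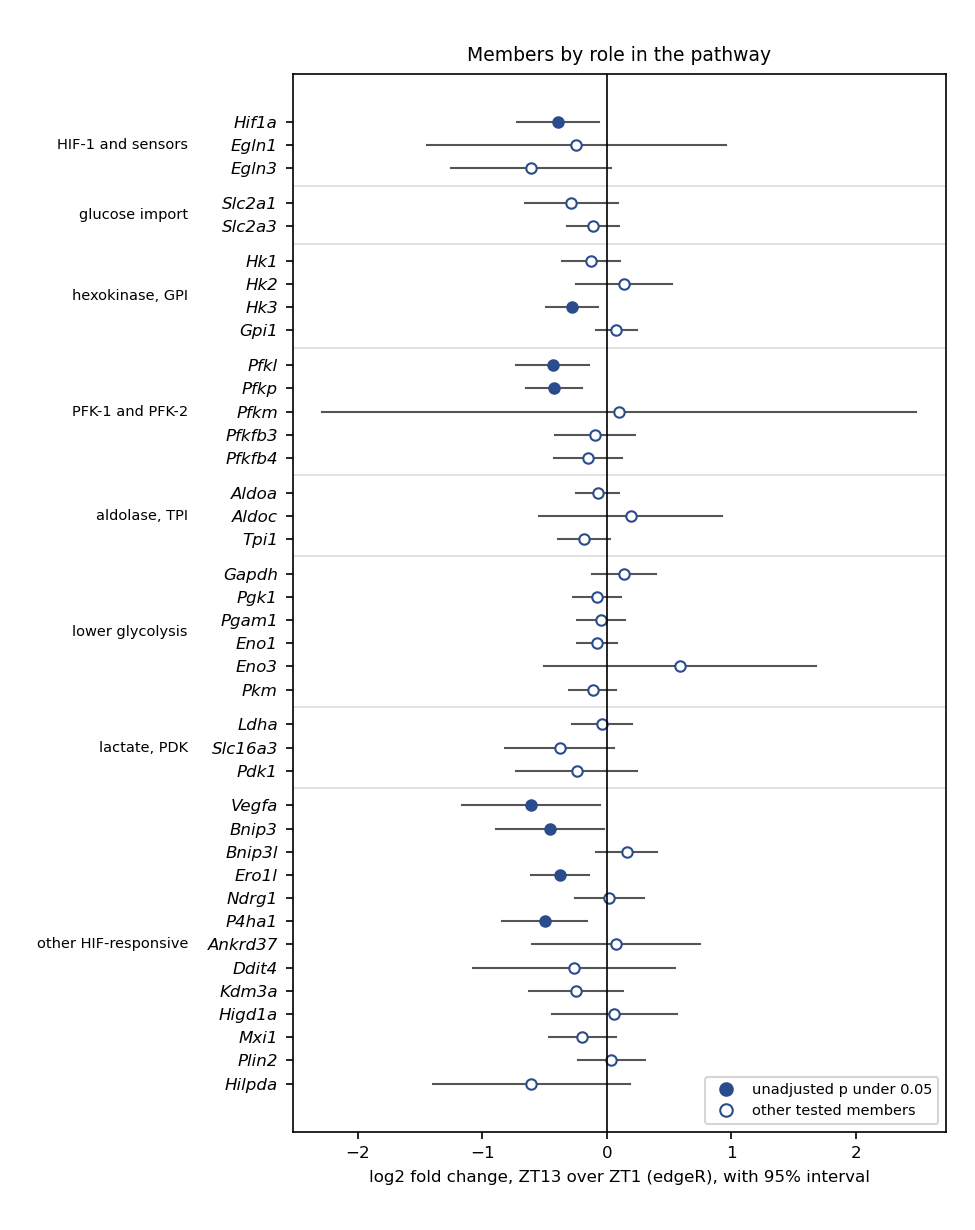
Log2 fold change of ZT13 over ZT1 (x axis) for the 39 tested members in pathway order, as edgeR estimates (circles) with 95% intervals (lines); filled circles have an unadjusted p under 0.05. All 8 filled circles lie left of 0, and Pfkm and Egln1 have the widest intervals.

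**Figure D2:**
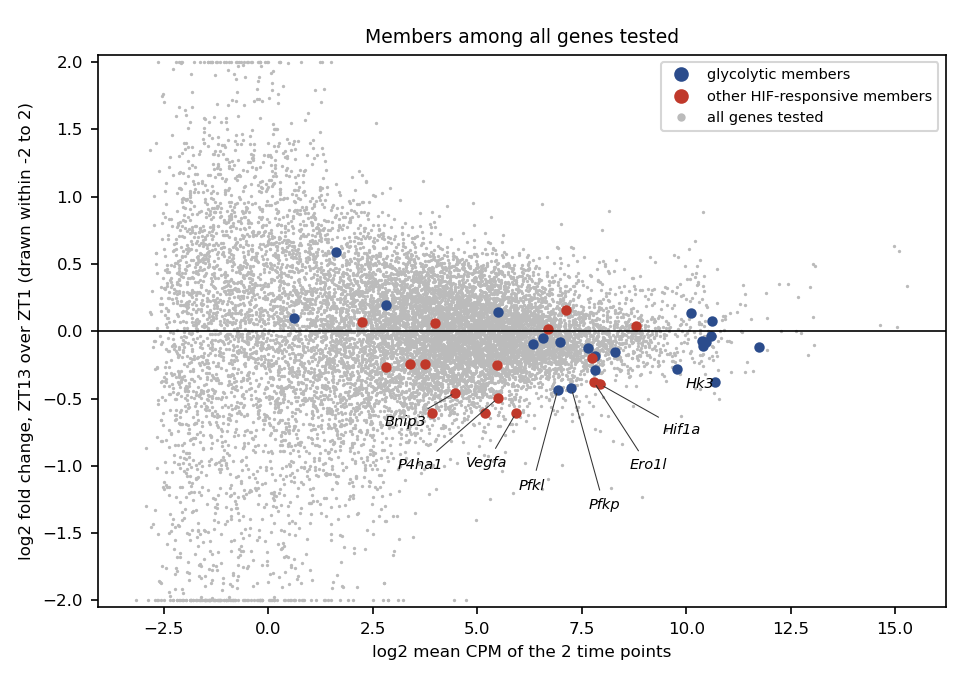
Log2 fold change of ZT13 over ZT1 against log2 mean CPM for all 12610 genes tested (grey; values past -2 or 2 are drawn at the edge), with glycolytic members in blue and the other HIF-responsive members in red. Most members sit among the abundant genes and slightly below 0; the 8 named genes have an unadjusted p under 0.05.

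HIF binds DNA at a short core, ACGTG or GCGTG, and the 250 bases before the RefSeq start of each gene (build GRCm38.p6) were searched for both on both strands. Of the 41 members 38 have a promoter in the table; Slc2a3, Bnip3l and Ndrg1 are missing from it. Some genes have several RefSeq starts there, and a gene counted if any of its windows held a core. At least 1 core stood in a window of 36 of the 38 (94.7%), with none in Gpi1 and Tpi1, and in 41.5% of all 27025 genes of the table. Vegfa counted only through a window inside the gene (chr17:46025164-46025413), since its window before the gene held none. Hk1 and Mxi1 likewise counted only through windows inside the gene. The window before Hilpda held none either, and its cores lay in a window that runs into the gene. For Hif1a, Pfkl, Aldoa, Gapdh, Ldha, Slc16a3, P4ha2, Ankrd37 and Higd1a every window lay inside the gene as GENCODE annotates it. Cores at 2 or more places were held by 23 members (60.5%) and by 15.2% of all genes. CACGTG, which contains ACGTG on both strands and is also the E-box bound by the clock proteins CLOCK and BMAL1 and by MYC, stood in 6 of the 38 (15.8%) and in 6.86% of all genes. Many members were listed because HIF is known to induce them, so a larger share of cores is no independent result. The genes of the table were not matched to the members in abundance or base content, and the part of either was not tested. In the sequences below capitals mark a core, read on either strand. Vegfa, one of the 8 members with an unadjusted edgeR p under 0.05, is not shown. Its window before the gene, which ends just short of the GENCODE start, holds no core. The sequences shown are of 4 of the 8, whose RefSeq window runs up to the start of the gene in the GENCODE annotation. They lie at chr7:138909520-138909756 (minus strand, Bnip3), chr10:59323046-59323295 (plus strand, P4ha1), chr13:6648778-6649021 (minus strand, Pfkp) and chr13:55021386-55021635 (minus strand, Hk3), each immediately upstream of the gene, with 13 bases of the Bnip3 window and 6 of the Pfkp window left out because they fell within it.
Bnip3: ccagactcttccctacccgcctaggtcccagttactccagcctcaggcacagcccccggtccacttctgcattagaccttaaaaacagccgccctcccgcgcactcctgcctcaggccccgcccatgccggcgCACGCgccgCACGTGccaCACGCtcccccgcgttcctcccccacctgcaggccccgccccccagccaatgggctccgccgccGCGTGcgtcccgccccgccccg
P4ha1: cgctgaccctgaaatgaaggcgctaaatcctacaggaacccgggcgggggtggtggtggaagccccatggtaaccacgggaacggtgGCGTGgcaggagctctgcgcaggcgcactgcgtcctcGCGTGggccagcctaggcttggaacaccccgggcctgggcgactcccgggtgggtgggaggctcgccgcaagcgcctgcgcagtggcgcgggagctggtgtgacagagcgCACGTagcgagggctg
Pfkp: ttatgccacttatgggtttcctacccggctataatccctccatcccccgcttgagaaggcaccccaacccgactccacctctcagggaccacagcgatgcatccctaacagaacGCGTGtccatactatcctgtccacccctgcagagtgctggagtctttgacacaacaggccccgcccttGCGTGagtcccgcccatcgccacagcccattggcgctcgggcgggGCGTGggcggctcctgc
Hk3: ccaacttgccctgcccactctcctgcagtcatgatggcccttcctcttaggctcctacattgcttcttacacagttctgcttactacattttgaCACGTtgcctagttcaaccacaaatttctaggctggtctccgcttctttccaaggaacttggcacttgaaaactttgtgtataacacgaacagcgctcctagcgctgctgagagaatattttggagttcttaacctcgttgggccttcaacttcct
The Bnip3 stretch holds cores at 4 places, 1 of them a CACGTG, P4ha1 and Pfkp at 3 places each, and Hk3 at 1. A match of these letters is a description of the sequence and shows no binding in these cells.

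Hif1a (ENSMUSG00000021109.14, chr12:73901375-73947530, plus strand; identifiers as deposited, positions in GRCm38 from the GENCODE M21 annotation, which calls all members protein-coding) itself had lower values at ZT13, without overlap between the times. It stood at 251, 262, 368 and 239 CPM in the 4 ZT1 libraries and at 217, 182, 215 and 239 in the 4 ZT13 libraries, in the order of the replicate numbers. The lowest ZT1 value (239.1) and the highest ZT13 value (238.7) were nearly equal. The means were 280.2 ± 59.6 CPM at ZT1 and 213 ± 23.3 at ZT13 (SD, n = 4 each). The log2 fold change was -0.40 ± 0.15 (SE; edgeR unadjusted p = 0.023, adjusted p = 0.494). ZT1 replicate 3 was well above the other ZT1 libraries, and without it the log2 fold change was -0.24, while without ZT13 replicate 2 the unadjusted p of the edgeR fit was 0.061. Of the 3 prolyl hydroxylase genes Egln2, which belongs to the further list on the HIF machinery, was the most abundant per kilobase of exon, at 20.6 CPM per kilobase at ZT1 and 20.0 at ZT13 beside 6.87 and 4.50 for Egln3 and 3.14 and 2.66 for Egln1. It stood at 57.7 ± 5.14 CPM at ZT1 and 56.0 ± 10.1 at ZT13, with overlapping groups (a log2 fold change of -0.04 ± 0.15). Egln3, itself a HIF target that feeds back on the alpha subunit, had 14.7, 24.9, 23.0 and 10.6 CPM at ZT1 and 10.9, 15.9, 11.0 and 10.2 at ZT13, where ZT1 replicates 2 and 3 were high and the groups overlapped (a log2 fold change of -0.61 ± 0.29, edgeR unadjusted p = 0.0599). Egln1, the main oxygen sensor of the family, ranged from 6.16 to 19.1 CPM at ZT1 and from 2.74 to 18.3 at ZT13, so that its spread within each time exceeded any difference between them (95% interval of the log2 fold change -1.44 to 0.95).

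The rest of the HIF machinery was read from a list of 13 further genes, 11 of them tested. Of these 1 had an unadjusted p under 0.05 with lower values and 1 with higher values, and the median log2 fold change was -0.04. The lower gene was Vhl, the substrate receptor of the ligase that degrades the alpha subunit, at 39.6, 42.7, 35.9 and 48.5 CPM at ZT1 and 26.7, 23.3, 31.6 and 29.4 at ZT13. Every ZT13 library was below every ZT1 library, with a log2 fold change of -0.59 ± 0.15 (edgeR adjusted p = 0.382, DESeq2 adjusted p = 0.0173, limma-voom adjusted p = 0.288). Elob, an elongin subunit of the same ligase, had higher values at ZT13, 61.9 ± 15.7 CPM at ZT1 and 87.6 ± 13.1 at ZT13, with overlapping groups (a log2 fold change of 0.50 ± 0.18, edgeR adjusted p = 0.494). Hif1an, the asparagine hydroxylase that blocks the activity of the alpha subunit, was at 35.5 ± 3.05 CPM at ZT1 and 26.4 ± 8.82 at ZT13, and Cul2, the scaffold of the ligase, at 37.6 ± 7.78 at ZT1 and 25.4 ± 10.4 at ZT13; neither reached an unadjusted p under 0.05 in the edgeR fit (0.0987 and 0.0693).

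Glucose enters the cell through facilitative transporters, of which Slc2a3 (GLUT3), the high-affinity carrier, was the more abundant here. Slc2a3 ranged from 1377 to 1437 CPM at ZT1 and from 1165 to 1496 at ZT13. The ZT1 libraries were close together and the ZT13 libraries lay on both sides of them, with a log2 fold change of -0.11 ± 0.09 (95% interval -0.32 to 0.10). Slc2a1 (GLUT1), the widely expressed HIF-inducible carrier, stood at 215, 291, 281 and 198 CPM at ZT1 and 237, 159, 181 and 231 at ZT13. Replicates 2 and 3 were the high libraries at ZT1 and the low ones at ZT13, and the groups overlapped (a log2 fold change of -0.28 ± 0.17, edgeR unadjusted p = 0.121). Per kilobase of exon, Slc2a3 made up 74.7% of the sum of both on average over the 8 libraries (lowest 69.9%, highest 80.0%).

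Hexokinases trap glucose in the cell by phosphorylation, and Hk3 (ENSMUSG00000025877.15, chr13:55005985-55021385, minus strand), a form typical of myeloid cells, carried most of the family's mRNA. Its levels were 978, 963, 895 and 1020.3 CPM at ZT1 and 782, 704, 907 and 784 at ZT13. The ZT13 libraries were lower except replicate 3, which exceeded the lowest ZT1 library. The log2 fold change was -0.28 ± 0.09 (edgeR unadjusted p = 0.0128, adjusted p = 0.488), so the ZT13 mean was 82.4% of the ZT1 mean. Hk1, the housekeeping form that binds mitochondria, had 192 to 223 CPM at ZT1 and 167 to 224 at ZT13. Hk2, the HIF-inducible form, was the rarest, at 32.6 to 51.0 and 37.7 to 53.1 CPM, with overlapping groups for both. Hk3 formed 89.2 ± 0.86% of hexokinase mRNA per kilobase at ZT1 and 87.7 ± 0.41% at ZT13 (SD, n = 4 each), the ZT13 shares all below the ZT1 shares, a gap of the shares that was given no test. With the lengths of the longest coding transcripts instead of merged exons the mean share over all libraries was 83.2% in place of 88.5%. Gpi1, the isomerase that turns glucose phosphate into fructose phosphate, was at 1533 ± 41.2 CPM at ZT1 and 1615 ± 90.3 at ZT13, a log2 fold change of 0.08 ± 0.07.

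The phosphofructokinase step, the main point of control in glycolysis, held the member with the smallest p. Pfkp (ENSMUSG00000021196.15, chr13:6579768-6648777, minus strand), the platelet-type subunit of the enzyme, was at 179.9, 159.7, 184 and 177 CPM at ZT1 and at 119, 123, 151 and 128 at ZT13, every ZT13 library below every ZT1 library. Its ZT13 mean was 74.5% of the ZT1 mean, with a log2 fold change of -0.43 ± 0.10 (edgeR unadjusted p = 0.00168, edgeR adjusted p = 0.321, DESeq2 adjusted p = 0.0113; over 17 alternatives the adjusted p was 0.0113 to 0.631). Pfkl (ENSMUSG00000020277.11, chr10:77986947-78010083, minus strand), the liver-type subunit, showed a difference of like size, from 149.5, 139, 133 and 138 CPM at ZT1 to 114, 84.5, 90.9 and 125 at ZT13. Here too no ZT13 library reached the lowest ZT1 library, and ZT13 replicates 2 and 3 were the lowest (a log2 fold change of -0.43 ± 0.13, edgeR unadjusted p = 0.00825, edgeR adjusted p = 0.449). Pfkm, the muscle-type subunit, was almost absent, at 0 to 2.62 CPM over the 8 libraries.
Both abundant subunits had lower values at ZT13, and the make-up of the pool overlapped between the times: Pfkl was 60.8 ± 1.88% of it at ZT1 and 60.0 ± 6.01% at ZT13, and Pfkp 37.9 ± 1.93% and 38.1 ± 5.45%. Which of the 2 leads depends on the length used, since Pfkl averaged 60.4% by merged exons and 46.5% by the longest coding transcript.
The bifunctional PFKFB enzymes make and break fructose bisphosphate of the regulatory kind, the strongest activator of phosphofructokinase. Pfkfb4 stood at 299, 299, 403 and 313 CPM at ZT1 and 323, 279, 318 and 263 at ZT13, with ZT1 replicate 3 alone high. Pfkfb3 had 80.7 to 89.3 CPM at ZT1, while its ZT13 libraries spread from 60.8 to 97.2 on both sides of them. The log2 fold changes were -0.15 ± 0.12 for Pfkfb4 and -0.10 ± 0.14 for Pfkfb3, and Pfkfb4 took 85.6% of the sum of both per kilobase.

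**Figure D3:**
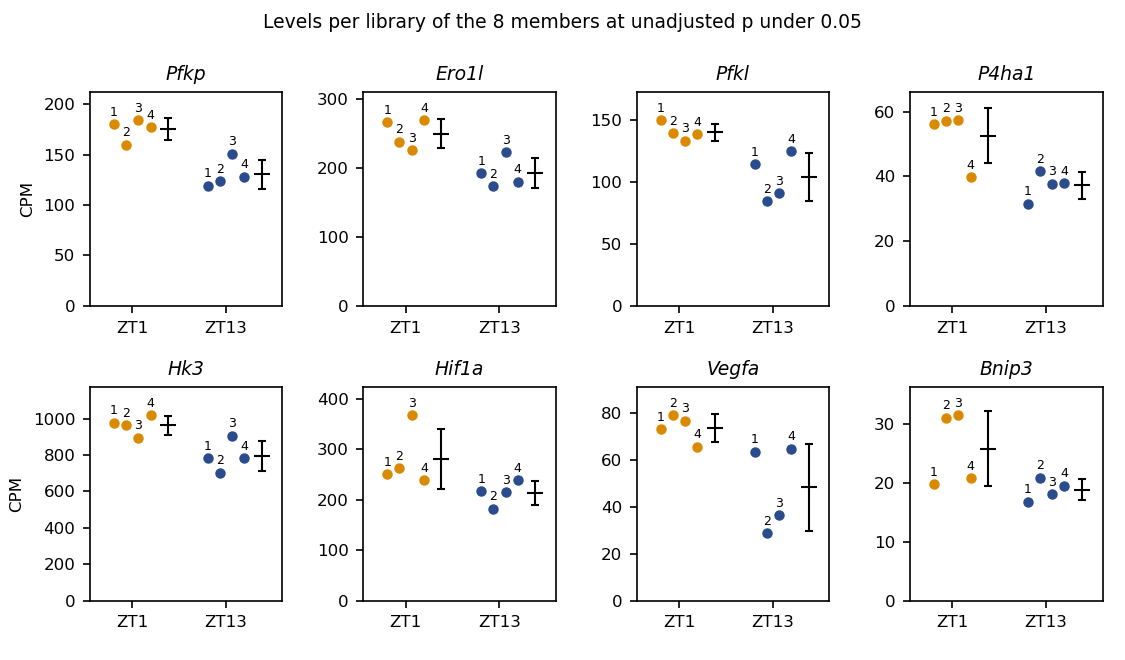
CPM in each library (points, numbered by replicate) at ZT1 (orange) and ZT13 (blue), with mean and SD (black; n = 4), for the 8 members with an unadjusted p under 0.05, each axis starting at 0. Pfkp, Ero1l, Pfkl, Hif1a and Vegfa do not overlap between the times, whereas P4ha1, Hk3 and Bnip3 do.

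From aldolase to pyruvate the fitted differences of the abundant enzymes were smaller. Aldoa, the aldolase of most tissues, was at 1370.0 ± 107 CPM at ZT1 and 1301 ± 29.5 at ZT13 (a log2 fold change of -0.07 ± 0.08) and formed 99.5% of the sum of Aldoa and Aldoc per kilobase. Aldoc, the brain-type form, was at 6.60 ± 0.232 CPM at ZT1 and 7.54 ± 3.11 at ZT13. Tpi1, which interconverts the triose phosphates, was at 233, 229, 276 and 224 CPM at ZT1 and 201, 228, 201 and 217 at ZT13, with a log2 fold change of -0.18 ± 0.09 (edgeR unadjusted p = 0.0806). Its values overlapped through ZT13 replicate 2, and ZT1 replicate 3 was the highest.
Gapdh, which oxidises glyceraldehyde phosphate, was 1 of the 2 members from here to pyruvate with a higher ZT13 mean, at 1055 ± 173 CPM at ZT1 and 1161 ± 28.5 at ZT13 (a log2 fold change of 0.14 ± 0.11, 95% interval -0.12 to 0.39). Its ZT1 libraries spread from 872 to 1238 CPM and enclosed all ZT13 libraries (1129 to 1190.2). Pgk1, the first enzyme of the pathway to return ATP, stood at 130.3 ± 8.87 CPM at ZT1 and 123 ± 3.82 at ZT13. Pgam1, which moves the phosphate group of phosphoglycerate, stood at 97.6 ± 4.86 CPM at ZT1 and 94.4 ± 2.89 at ZT13. Eno1, the ubiquitous enolase, was at 1459 ± 50.2 CPM at ZT1 and 1380.1 ± 69.3 at ZT13 and formed 99.3% of the enolase sum per kilobase with Eno3, the muscle form, which had 2.46 ± 1.03 CPM at ZT1 and 3.69 ± 1.72 at ZT13 and a higher ZT13 mean (a log2 fold change of 0.59 ± 0.49).
Pkm, which encodes pyruvate kinase, was the most abundant member on either scale, at 3562 ± 171 CPM at ZT1 and 3292 ± 287 at ZT13, or 712 and 658 CPM per kilobase (a log2 fold change of -0.11 ± 0.09). Gene-level counts do not separate its splice forms PKM1 and PKM2. For the 6 lower-glycolysis members the fitted log2 fold changes ran from -0.11 to 0.59 and none had an unadjusted p under 0.05 in the edgeR fit.

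Ldha, the lactate dehydrogenase subunit that regenerates NAD+ by reducing pyruvate to lactate, followed Pkm per kilobase together with Aldoa. It was at 1569 ± 192 CPM at ZT1 and 1528 ± 133 at ZT13 (a log2 fold change of -0.04 ± 0.11, 95% interval -0.28 to 0.20) and made up 98.6% of the sum with Ldhb. Slc16a3 (MCT4), the HIF-inducible exporter of lactate, varied more, with 1647, 1909, 2309 and 1559.9 CPM at ZT1 and 1451, 1023, 1271 and 1961 at ZT13. Its ZT13 replicates 1, 2 and 3 lay below every ZT1 library, but ZT13 replicate 4 was above 3 of them (a log2 fold change of -0.38 ± 0.20, edgeR unadjusted p = 0.0814). Pdk1, the kinase that shuts off pyruvate dehydrogenase and so keeps pyruvate out of mitochondria, was rare, at 14.7 ± 1.96 CPM at ZT1 and 12.4 ± 3.32 at ZT13 (a log2 fold change of -0.24 ± 0.22).

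**Figure D4:**
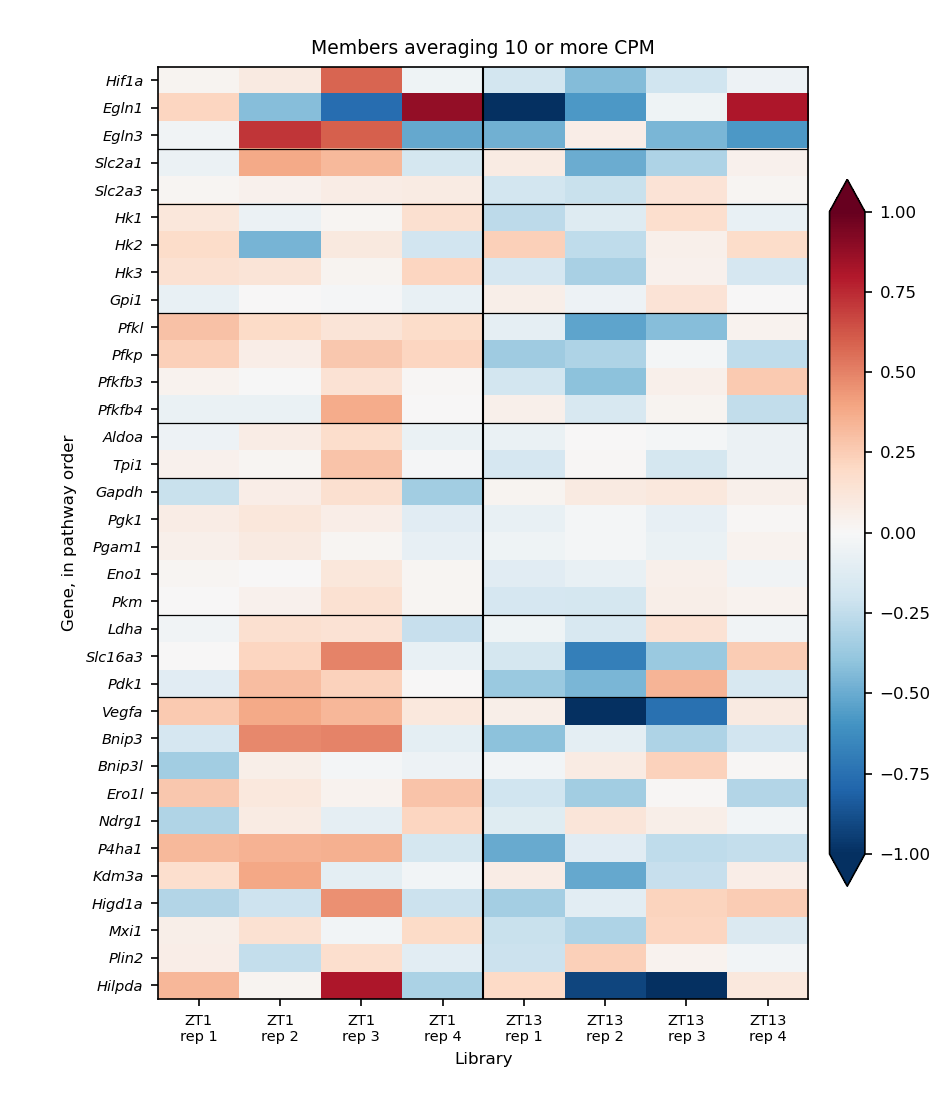
Log2 of each library's CPM over the mean CPM of the 8 libraries (colour, drawn within -1 to 1) for members averaging 10 CPM or more, in pathway order. Enzymes from Aldoa to Ldha stay near the mean in all libraries, while Vegfa, Hilpda and Slc16a3 have their lowest values in ZT13 replicates 2 and 3, and Egln1 varies within both times.

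**Figure D5:**
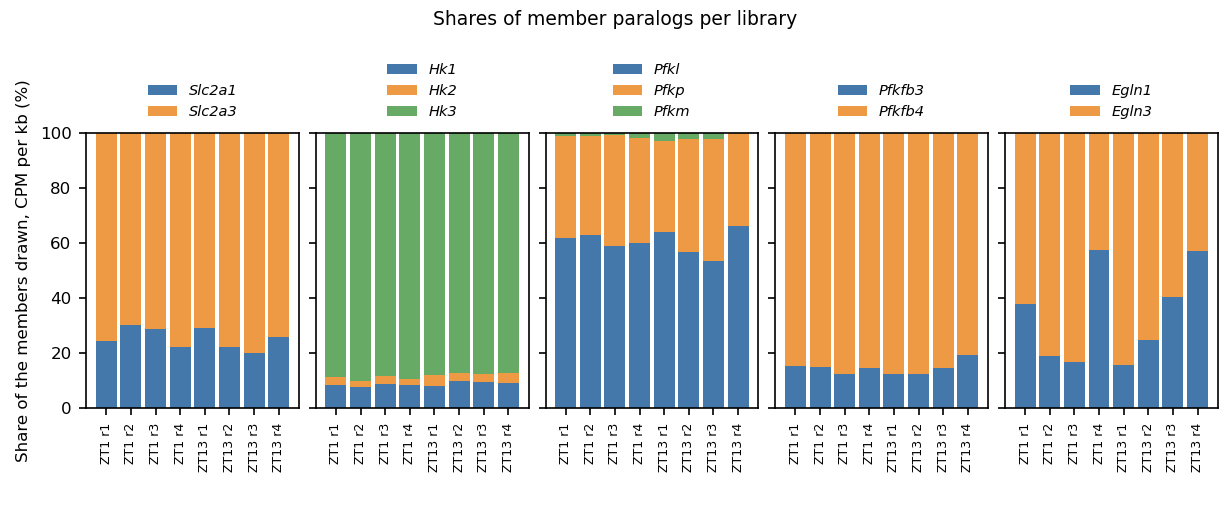
Share of each paralog in the summed CPM per kilobase of merged exons of its family's members among the 41 genes (%), for the 4 ZT1 and 4 ZT13 libraries; Egln2 and other relatives outside the 41 genes are not drawn. Hk3, Pfkfb4 and Slc2a3 lead those drawn in every library, whereas Egln1 and Egln3 change places.

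Among the HIF-responsive genes outside glycolysis, Vegfa had one of the largest differences. Vegfa (ENSMUSG00000023951.19, chr17:46016993-46032369, minus strand), the angiogenic growth factor and a classical HIF target, stood at 72.9, 79.1, 76.6 and 65.5 CPM at ZT1 and 63.5, 28.7, 36.3 and 64.7 at ZT13. The groups did not overlap, but ZT13 replicates 1 and 4 were close to the lowest ZT1 library and replicates 2 and 3 far below it. The log2 fold change was -0.61 ± 0.25 (edgeR unadjusted p = 0.0347, adjusted p = 0.519), and without any of ZT1 replicates 1, 2 and 3 or ZT13 replicates 2 and 3 the unadjusted p of the edgeR fit lay above 0.05, up to 0.0872. Hilpda, an inhibitor of lipolysis at lipid droplets, had the same libraries low: 45.9, 37.3, 64.0 and 29.3 CPM at ZT1 and 42.0, 19.4, 15.4 and 39.3 at ZT13, with overlap (a log2 fold change of -0.61 ± 0.35, edgeR unadjusted p = 0.118). Plin2, a coat protein of lipid droplets, was much more abundant and had no such pattern, at 439 ± 54.3 CPM at ZT1 and 451 ± 57.8 at ZT13 (a log2 fold change of 0.04 ± 0.12).

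Members with roles in protein folding and matrix synthesis also had lower values at ZT13. Ero1l (ENSMUSG00000021831.10, chr14:45283087-45318771, minus strand), the oxidase that forms disulfide bonds in the endoplasmic reticulum, was at 266, 239, 226 and 269.6 CPM at ZT1 and 193, 174, 223 and 181 at ZT13. No ZT13 library reached the ZT1 range, although ZT13 replicate 3 came close to its lower end and overlapped it when scaled by DESeq2 or upper-quartile factors (a log2 fold change of -0.38 ± 0.10, edgeR unadjusted p = 0.00471, adjusted p = 0.403). P4ha1 (ENSMUSG00000019916.15, chr10:59323296-59373304, plus strand), the catalytic subunit of collagen prolyl 4-hydroxylase, was at 56.2, 57.2, 57.3 and 39.8 CPM at ZT1 and 31.6, 41.6, 37.7 and 38.0 at ZT13. Apart from ZT1 replicate 4, which fell within the ZT13 range, the ZT1 libraries were nearly equal and higher (a log2 fold change of -0.50 ± 0.15, edgeR unadjusted p = 0.00867, adjusted p = 0.451). Its paralog P4ha2 was at 0 in all ZT13 libraries and in ZT1 replicates 2 and 4, with 0.065 CPM in ZT1 replicate 1 and 0.805 in ZT1 replicate 3, and was too rare to test; a count of 0 allows up to 0.0674 CPM in the shallowest library.

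The fitted changes of the mitophagy receptors had opposite signs, a difference that was not tested. Bnip3 (ENSMUSG00000078566.9, chr7:138890836-138909519, minus strand) stood at 19.8, 31.0, 31.5 and 20.8 CPM at ZT1 and 16.8, 20.8, 18.0 and 19.5 at ZT13, where ZT1 replicates 2 and 3 were high and ZT1 replicates 1 and 4 lay beside the ZT13 libraries. Its log2 fold change was -0.46 ± 0.19 (edgeR unadjusted p = 0.0411, adjusted p = 0.529), and without ZT1 replicate 2 it was -0.36 with an unadjusted edgeR p of 0.121. Leaving out ZT1 replicate 3 or ZT13 replicate 1, 3 or 4 also took that p above 0.05. Bnip3l (NIX), which also acts in clearing mitochondria, was more abundant, at 133 ± 15.4 CPM at ZT1 and 148 ± 12.1 at ZT13 (a log2 fold change of 0.16 ± 0.11, 95% interval -0.09 to 0.40).

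The remaining HIF-responsive members gave no unadjusted p under 0.05 in the edgeR fit. Mxi1, a MAX partner that opposes MYC, was at 228 ± 15.4 CPM at ZT1 and 199 ± 33.2 at ZT13 (a log2 fold change of -0.20 ± 0.12), and Kdm3a, a histone H3 lysine demethylase, at 48.0 ± 7.38 at ZT1 and 40.4 ± 7.51 at ZT13 (-0.25 ± 0.17). Ddit4 (REDD1), an inhibitor of mTORC1, was at 7.72 ± 1.62 CPM at ZT1 and 6.42 ± 2.96 at ZT13 and Ankrd37, an ankyrin repeat protein, at 4.63 ± 1.45 at ZT1 and 4.87 ± 0.394 at ZT13. Ndrg1, a stress-responsive gene, was at 103 ± 15.6 CPM at ZT1 and 104 ± 7.63 at ZT13 and Higd1a, a small protein of the inner mitochondrial membrane, at 15.5 ± 4.17 at ZT1 and 16.1 ± 3.07 at ZT13. For Ddit4, Ankrd37, Ndrg1 and Higd1a the groups overlapped and the log2 fold changes ran from -0.27 to 0.07. Ak4, a mitochondrial adenylate kinase, was counted almost only at ZT1, at 0.715, 0.43, 1.12 and 0 CPM against 0, 0, 0 and 0.0225 at ZT13, too little to be tested by edgeR, and had a DESeq2 adjusted p of 0.0533.

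A list of 24 further HIF targets held 19 tested genes, of which 1 had an unadjusted p under 0.05 with higher values and 1 with lower values (5.26% each), and its median log2 fold change was -0.09. The higher one was Hmox1, heme oxygenase 1, a target of NRF2 and BACH1 as well, at 122, 94.5, 126 and 164 CPM at ZT1 and 174, 178, 211 and 185 at ZT13. Every ZT13 library was above every ZT1 library (a log2 fold change of 0.56 ± 0.15, edgeR adjusted p = 0.403). The lower one was Jmjd6, a hydroxylase of splicing factors, at 38.6 ± 7.56 CPM at ZT1 and 28.6 ± 5.81 at ZT13 (a log2 fold change of -0.43 ± 0.19, edgeR adjusted p = 0.532). A list of 23 further genes of glycolysis and its carriers held 14 tested genes with a median of 0.12 and 1 unadjusted p under 0.05: Slc16a1 (MCT1), the lactate carrier of most tissues, at 21.7, 20.4, 27.6 and 26.3 CPM at ZT1 and 16.7, 17.5, 10.4 and 19.9 at ZT13. All its ZT13 values were below its ZT1 values (a log2 fold change of -0.58 ± 0.22, edgeR adjusted p = 0.494). Tigar, a phosphatase that slows glycolysis, was rare, at 3.55 ± 0.681 CPM at ZT1 and 1.91 ± 0.715 at ZT13, and so was Bpgm, which makes the bisphosphoglycerate that red cells use, at 3.00 ± 1.68 CPM at ZT1 and 5.76 ± 1.41 at ZT13.

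The routes that leave glycolysis were represented by 3 more lists. Of the 8 pentose phosphate genes none had an unadjusted p under 0.05 in the edgeR fit, and 7 of the 8 log2 fold changes were positive, with a median of 0.10. G6pdx, which feeds glucose phosphate into that pathway and supplies NADPH to the oxidative burst, was at 1799.8 ± 91.0 CPM at ZT1 and 1944 ± 298 at ZT13 and Taldo1, transaldolase, at 1225 ± 229 at ZT1 and 1449.8 ± 74.0 at ZT13. Of the 12 genes of pyruvate oxidation 1 had such a p: Mpc1, a subunit of the mitochondrial pyruvate carrier, with every ZT13 library higher (32.3 ± 5.38 CPM at ZT1 and 40.9 ± 0.956 at ZT13, a log2 fold change of 0.34 ± 0.14, edgeR adjusted p = 0.519). Its partner subunit Mpc2 was at 98.5 ± 25.9 CPM at ZT1 and 127 ± 10.3 at ZT13 with overlap (a log2 fold change of 0.37 ± 0.17, edgeR unadjusted p = 0.0569). Of the 11 glycogen genes 1 had such a p: Ugp2, which makes UDP-glucose, with lower ZT13 values (210.1 ± 16.4 CPM at ZT1 and 178 ± 13.4 at ZT13, a log2 fold change of -0.24 ± 0.09, edgeR adjusted p = 0.504). Pygl, the glycogen phosphorylase of liver and leukocytes, was the most abundant of them, at 1880.5 ± 82.4 CPM at ZT1 and 2038 ± 225 at ZT13.

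Several glycolytic enzymes have many processed copies in the genome, and reads of 50 bases cannot always be assigned among them. Of the 50-base windows of the longest coding transcript, 82.5% for Gapdh also occurred in a transcript of another annotated gene (222 genes, 213 of them pseudogenes), 72.2% for Eno1, 67.96% for Pgk1, 62.4% for Bnip3, 41.5% for Pgam1, 36.6% for Higd1a and 34.4% for Pkm. Their levels are therefore uncertain, as how reads with several matching places were counted is not stated in any source used here. Eno1b, a near-copy of Eno1 named here for that reason, was counted at 30.6 CPM on average at ZT1 and 31.0 at ZT13. For Pfkp 17.1% of windows were shared, all with Pitrm1, a gene on the opposite strand whose exons overlap its own, and the library kit did not mark the strand. For Hk3, Ero1l and P4ha1 no window was shared, for Pfkl 0.0543% and for Vegfa 0.235%, and for Hif1a 7.25%, mainly with an antisense gene.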

How the data were processed

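RNA of sorted spinal cord neutrophils from 4 ZT1 and 4 ZT13 samples was amplified with the SMART-Seq v4 kit, made into Nextera XT libraries, which do not mark the strand, and read as single reads of 50 bases, per the labels' protocols. The authors deposited raw counts per gene with Ensembl identifiers. GRCm38 was the genome build and STAR 2.7.10b, Subread 2.0.3, featureCounts, FastQC and DESeq2 1.46.0 were the tools, per the submitters' processing notes; which tool did what, the annotation release, the strand setting and the treatment of multi-mapping reads are not given in the sources used. Of 23369 identifiers 22231 matched the GENCODE M21 annotation without version numbers, and the other 1138 held 0.121% of the counts. Aldoa stands on 2 identifiers there, and the one used holds nearly all its counts (0 to 10 counts per library on the other). RefSeq lists Ero1l as Ero1a.

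From the counts, edgeR 4.0.16 in R 4.3.3 (limma 3.58.1) kept 12610 genes by filterByExpr (minimum count 10, minimum total count 15) and tested ZT13 over ZT1 with TMM factors, robust quasi-likelihood fits and Benjamini-Hochberg adjustment over all of them at 0.05. The procedure was tested on simulated data. SE is the absolute log2 fold change over the square root of F. Levels per kilobase use merged exons of the GENCODE annotation. With totals of 46152067 to 67873023 counts, a gene at 0 may still have up to 3 counts, or 0.0414 to 0.0674 CPM; such limits cover counting error only. The median SE of the log2 fold change was 0.27 over all genes tested and 0.13 over those averaging 50 CPM or more. Alternatives were other scalings and filters, DESeq2 1.42.0, limma-voom with quality weights, each library left out, and replicate numbers as a block. By rule all members, up to 4 genes of smallest p and the most abundant of each further list were named; not all are printed. The members and lists were chosen with earlier results of these data known, so no p is given over a list. Genes of the further lists that were not among the identifiers used were not analysed here.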

Additional observations from a re-analysis of the deposited data

Results flagged for a closer look

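In 7 of 81 groups of 4 libraries (8.64%) the highest or lowest library stood apart from the other 3 by more than Dixon's 95% limit; chance alone gives about 1 in 20 such groups. Of the 7, 4 were ZT1 replicate 3. That library was high for Pfkfb4, at 403 CPM with the other ZT1 libraries at 299 to 313, and for Eno1, at 1533.5 CPM with the others at 1427 to 1438. It was also high for Higd1a, at 21.7 CPM against 12.9 to 13.7, and for the rarely counted P4ha2, at 0.805 CPM against 0 to 0.065. ZT1 replicate 4 was low for P4ha1, at 39.8 CPM with the other ZT1 libraries at 56.2 to 57.3. ZT13 replicate 2 was high for Egln3, at 15.9 CPM with the others at 10.2 to 11.0. ZT13 replicate 4 was the only ZT13 library with any count of Ak4, at 0.0225 CPM, which is below the level of 3 counts.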

How the results depend on the processing

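DESeq2 was the only tool to call genes at the adjusted threshold, 256, while the other 16 alternatives gave 0. Genes at an unadjusted p under 0.05 numbered 1160, and 2091 with no filter and 1901 by DESeq2. Members among them with lower values numbered 8, 6 to 10 with a library left out (beside 3.73% to 6.16% of all genes), and 13 with library totals (6.46%). They numbered 12 with no filter (beside 6.27%), 10 by DESeq2 (4.78%), 9 by limma-voom (6.61%) and 7 with the stricter filter (5.38%). Members with higher values at such a p numbered 0 throughout. Members lower without overlap numbered 5, but 10 with library totals (25.6%, beside 3.64% of all genes) and 5 to 11 with a library left out (beside 4.28% to 6.23%); higher without overlap were 0, or 0 to 1 with a library left out (Aldoc or Gpi1). The median of the other HIF-responsive members was -0.37 by limma-voom and -0.37 to -0.16 with a library left out. Over the 17 alternatives Pfkp, Pfkl, Hk3 and Ero1l kept an unadjusted p under 0.05 in 17, P4ha1 in 16, Hif1a in 15, Vegfa in 12 and Bnip3 in 8. Shares within families moved with the length: Hk3 83.2% by the longest coding transcript and 82.9% by unshared windows, Pfkl 46.5% and 42.1%, Slc2a3 83.4% and 83.1%, Ldha 99.0% by the former, Aldoa 99.7% and Eno1 99.9% by the latter. Windows unique in the genome were not run, since no genome was used; the unshared windows of annotated transcripts the background of genes above 50 CPM and the shares of all genes under each setting were chosen after seeing the data.

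Leaving out a library turned the sign of small log2 fold changes, whose range was -0.77 to 0.14 for Egln1, -0.26 to 0.51 for Pfkm, -0.22 to 0.00532 for Pfkfb3, -0.0181 to 0.43 for Aldoc, -0.11 to 0.00911 for Ldha, -0.0692 to 0.11 for Ndrg1, -0.0837 to 0.23 for Ankrd37, -0.0247 to 0.27 for Higd1a and -0.0465 to 0.10 for Plin2. Pfkm was -1.27 by limma-voom, and with library totals Ndrg1 was -0.0406 and Plin2 -0.0219. None of these members had an unadjusted p under 0.05 in any of these fits. The cause was not tested.

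The labels do not say that the replicate numbers pair the samples. The correlations of deviations between same-numbered libraries were -0.040 to 0.020 by sample title and -0.0006 to 0.050 by library name. Such values cannot show whether same-numbered samples shared a day or litter. With the replicate block 0 genes passed under either numbering, and 8 or 7 members had lower values at an unadjusted p under 0.05. By titles Pfkm was -0.24; by library names Pfkfb4 was 0.0123, Aldoc -0.0623 and Ldha 0.0154.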

Other observations

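The libraries took unequal parts in the pattern of the 39 tested members. ZT1 replicate 3 held the highest value of 13 members (33.3%), beside 10.6% of all genes tested, and the lowest of 0. ZT13 replicate 2 held the lowest value of 13 members (33.3%), beside 10.7% of all genes. ZT13 replicate 3, the library with the fewest detected genes, held the lowest value of 3 members (7.69%) beside 20.9% of all genes, and the highest of 7.

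ZT13 replicates 2 and 3 were the lowest ZT13 libraries for Vegfa (28.7 and 36.3 CPM), Hilpda (19.4 and 15.4), Slc2a1 (159 and 181), Slc16a3 (1023 and 1271), Pfkl (84.5 and 90.9), Kdm3a (31.0 and 37.7) and Ddit4 (5.07 and 3.01). For Vegfa, Hilpda, Slc2a1 and Kdm3a the other ZT13 libraries were within or close to the ZT1 range. These genes were picked after their values were seen, and the 2 libraries were given no test against the others.

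The summed CPM of the 22 glycolytic members was 15503 to 17860 at ZT1 and 14087 to 16187 at ZT13, and that of the 17 tested other HIF-responsive members was 1687 to 1892 at ZT1 and 1460 to 1624 at ZT13. The first overlapped between the times and the second did not. On the mean of log2 CPM, which weights each gene equally, the second overlapped too: the lowest ZT1 and the highest ZT13 library were both at 5.44. Sums of CPM are led by the most abundant genes, here Pkm in the glycolytic group and Plin2 in the other. Plin2 itself was not lower at ZT13 (means of 439 CPM at ZT1 and 451 at ZT13). Hif1a (280 and 213) and Ero1l (250 and 193), the next most abundant of that group, were.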
